A study of Mus musculus with 11 samples.

Results

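The 9 genes described here encode transcription factors that set or maintain the identity of alveolar macrophages, the phagocytes of the lung's air spaces. They are Pparg, Bhlhe40, Bhlhe41, Cebpa, Cebpb, Spi1, Maf, Egr2 and Klf4. They were chosen by name, by a rule that uses no measured value, although earlier results of these data were known at that point. They were found through their Ensembl identifiers among the 57180 identifiers of the count table. All 9 passed the filter on low counts and were among the 19948 genes tested. RNA came from alveolar macrophages sorted by flow cytometry from lung homogenates of wild-type C57BL/6 mouse pups at postnatal day 7. Hyperoxia meant 95% oxygen on postnatal days 1 to 5, and control pups stayed in normoxia. There were 3 libraries of normoxia males (NM1 to NM3), 3 of normoxia females (NF1 to NF3), 2 of hyperoxia males (HM2 and HM3) and 3 of hyperoxia females (HF1 to HF3). The labels do not say whether the libraries of a group came from separate animals or from pools, and p-values here weigh differences against library-to-library spread only, part of which may be technical. The title of the series names sex as a variable in the response of these cells to oxygen.

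PPARG is a nuclear receptor that pairs with RXR and, in the fetal and newborn lung, is switched on by GM-CSF to turn fetal monocytes into alveolar macrophages that handle surfactant lipid. PU.1 (encoded by Spi1) and the C/EBP factors set the macrophage programme on which PPARG acts. BHLHE40 and BHLHE41 are repressors that bind E-boxes and sustain self-renewal of alveolar macrophages, and EGR2 is a zinc finger factor that acts downstream of GM-CSF and TGF-beta in these cells. KLF4 is a zinc finger factor of monocytes and many resident macrophages. MAF (c-Maf) opposes self-renewal in macrophages and is typically low in alveolar macrophages and high in interstitial macrophages.

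Sequence upstream of the members' start sites was looked up because 8 of the 9 genes varied together between libraries, as described further on. RefSeq promoter windows (build GRCm38.p6) matched 6 of the 9 genes with 12 start sites in all, and the 250 bases upstream of each start were searched on both strands for letters that members of these factor families bind. The E-box letters CACGTG, bound by BHLHE40 and BHLHE41 and reading the same on both strands, were in 6.02% of all 32851 windows of that length, and among the members in those of Bhlhe41, Klf4 and start 1 of Egr2. The C/EBP letters TTGCNNAA were in 9.56% of all windows, and among the members at 2 places in the window of Pparg start 3. The KLF letters CCCCACCC were in 9.05% of all windows and in that of Cebpa, where the match began 242 bases upstream of the start. No member window held the PU.1 letters GAGGAAGT (2.44% of all windows), the MAF letters TGCTGAC (3.81%) or the EGR letters GCGTGGGCG (0.536%). The PPAR-RXR direct repeat with a 1-base spacer was in 0.0335% of all windows and in no member window. The 4 windows with an E-box or C/EBP match are given 5′ to 3′ on the gene's strand, ending at the base before the start site, with the matched letters in capitals. They show that the E-box matches lie 153 bases upstream of the start in Bhlhe41, 182 in Klf4 and 27 in Egr2, and that the C/EBP matches in Pparg lie 215 and 16 bases upstream.
Bhlhe41 (chr6:145865421-145865670, minus strand): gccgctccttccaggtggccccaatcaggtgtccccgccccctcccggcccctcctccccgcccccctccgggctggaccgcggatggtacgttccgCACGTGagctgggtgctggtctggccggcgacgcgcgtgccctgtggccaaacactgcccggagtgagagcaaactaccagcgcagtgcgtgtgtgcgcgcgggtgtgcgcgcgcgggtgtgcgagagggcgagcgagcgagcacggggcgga
Klf4 (chr4:55532476-55532725, minus strand): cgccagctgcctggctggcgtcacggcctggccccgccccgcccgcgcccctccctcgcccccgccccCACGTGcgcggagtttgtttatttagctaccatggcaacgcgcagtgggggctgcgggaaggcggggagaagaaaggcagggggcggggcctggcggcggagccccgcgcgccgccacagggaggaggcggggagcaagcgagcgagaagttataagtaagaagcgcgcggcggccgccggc
Egr2, start 1 (chr10:67535249-67535498, plus strand): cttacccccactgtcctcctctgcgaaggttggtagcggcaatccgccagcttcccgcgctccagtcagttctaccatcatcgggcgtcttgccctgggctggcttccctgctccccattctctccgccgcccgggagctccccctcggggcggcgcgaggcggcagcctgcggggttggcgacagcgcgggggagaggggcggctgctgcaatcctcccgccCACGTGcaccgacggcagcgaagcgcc
Pparg, start 3 (chr6:115421816-115422065, plus strand): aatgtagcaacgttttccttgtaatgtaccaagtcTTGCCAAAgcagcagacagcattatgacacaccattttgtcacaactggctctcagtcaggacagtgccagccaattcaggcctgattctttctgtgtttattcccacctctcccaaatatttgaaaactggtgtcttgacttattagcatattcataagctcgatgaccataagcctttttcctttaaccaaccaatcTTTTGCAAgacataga
Whether any factor binds these letters in the sorted cells was not measured.

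Library totals ran from 18087948 counts (NM3) to 32579468 (NF1). Between 26856 and 35530 genes had at least 1 count, and the 4 libraries with the most were NM3, NF3, HF2 and HF3. Levels are given in CPM (counts divided by the TMM-scaled library size, per 1000000) and a floor of 3 counts was 0.0880 to 0.160 CPM. The sorted cells carried the alveolar macrophage markers Siglecf (273 to 377 CPM in normoxia, 157 to 300.3 CPM in hyperoxia) and Car4 (564 to 1012 and 467 to 730.4 CPM). Of the marker lists of other cell types, the summed level of 10 epithelial genes was 191 to 366 CPM in normoxia and 388 to 473 CPM in hyperoxia, most of it from Cdh1 (means of 214 and 333 CPM), while Epcam, Scgb1a1 and Foxj1 had fold changes below 0. That of 6 erythroid genes was 101 to 1200.2 CPM and 52.2 to 302 CPM. The summed level of 8 endothelial genes was 113 to 189.9 and 98.8 to 149 CPM. The defining markers of B cells (Cd79a, Ms4a1) and of T and NK cells (Cd3e, Cd3d) stayed at or below 2.27 CPM in every library. In bulk RNA, fewer cells of a type and less RNA per cell cannot be told apart. The part of these other cell types in the members' values was not tested.

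Divided by exon length (RPKM on the exon lengths of GENCODE M21, mean ± SD over the 11 libraries), the members spanned a wide range of levels. Cebpb, a C/EBP factor also induced by inflammatory and stress signals, was the highest at 432 ± 107 RPKM, the 99.6th percentile of 15438 protein-coding genes tested. Spi1, which encodes the ETS factor PU.1 required by all macrophages, came next at 127 ± 21.5 RPKM. Cebpa, the C/EBP factor of myeloid commitment, stood at 74.5 ± 25.2 RPKM and Bhlhe40 at 56.9 ± 14.3 RPKM. Klf4 followed at 48.0 ± 12.4 RPKM, Pparg at 36.0 ± 8.42 RPKM, Egr2 at 32.9 ± 9.73 RPKM and Bhlhe41 at 17.6 ± 4.49 RPKM. Maf was the lowest at 0.803 ± 0.470 RPKM, the 35.5th percentile. From Spi1 down to Bhlhe41, the range over libraries of each gene overlapped that of the gene next to it in this order. Cebpb lay above Spi1, and Bhlhe41 above Maf, with no overlap. Within single libraries the order was steadier: Spi1 exceeded Cebpa and Egr2 exceeded Bhlhe41 in 11 of 11 libraries, Bhlhe40 exceeded Klf4 in 10 of 11, Klf4 exceeded Pparg in 10 of 11, and both Cebpa over Bhlhe40 and Pparg over Egr2 held in 9 of 11.

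**Figure D1:**
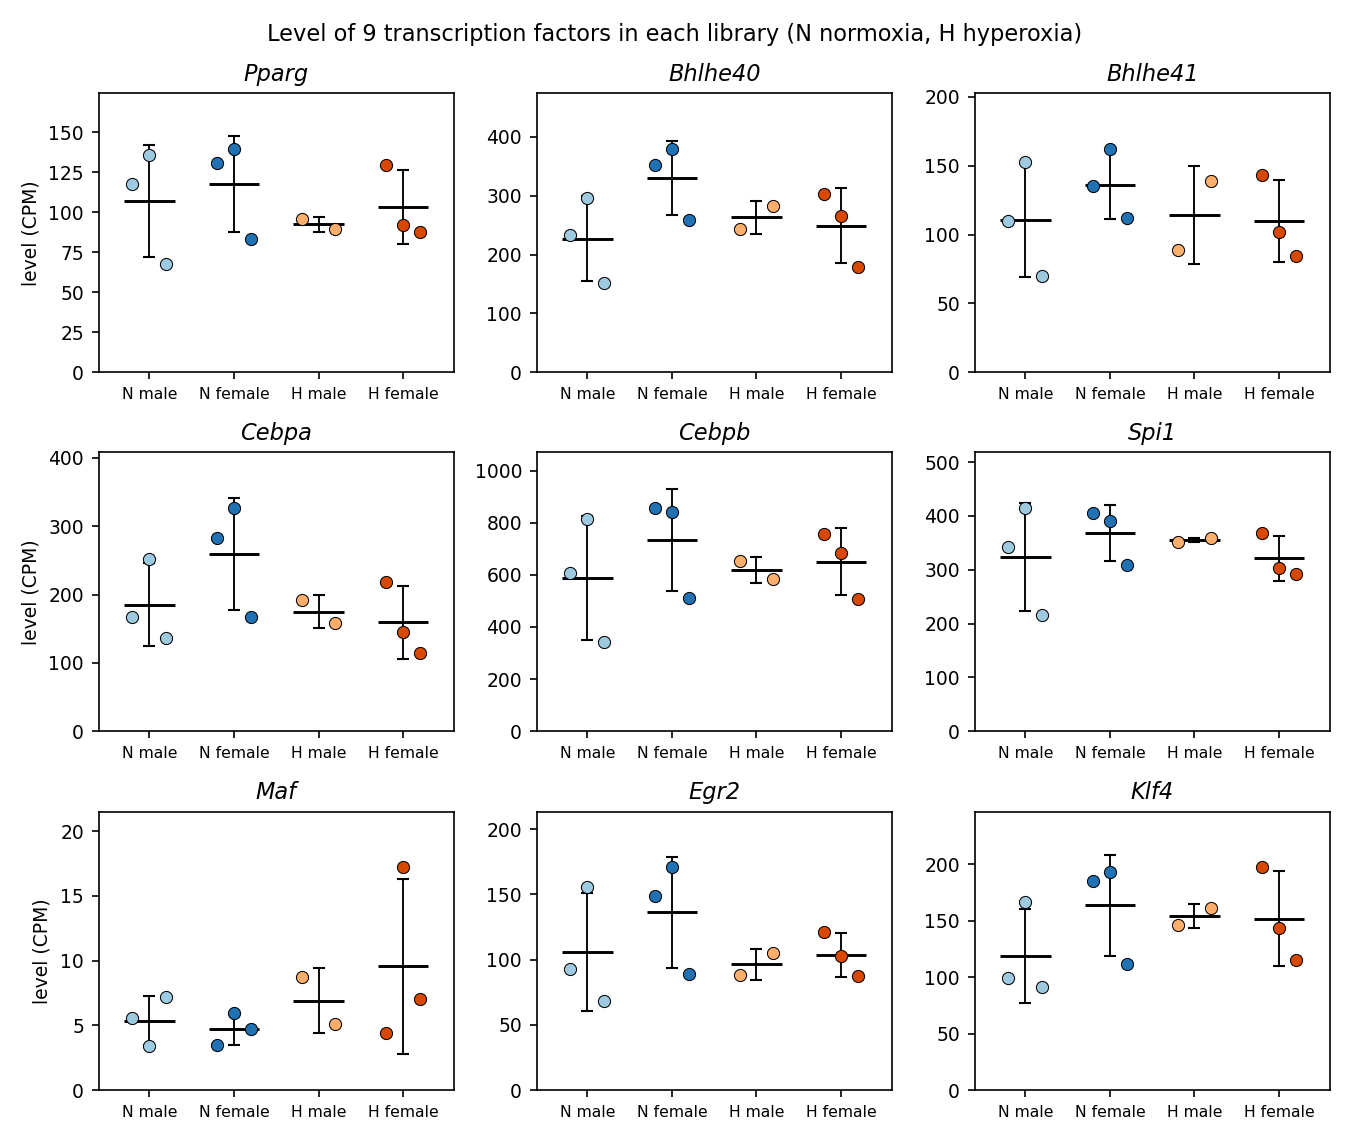
Level of each factor in CPM (vertical axes from 0) in normoxia (N) and hyperoxia (H) males and females; each point is 1 library, the line is the group mean and the bar is the SD (n = 3, 3, 2 and 3). Hyperoxia and normoxia points overlap for every gene, Cebpb reaches 855 CPM, and Maf stays under 10 CPM in all libraries but 1 hyperoxia female library at 17.2 CPM.

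None of the 9 factors changed between hyperoxia and normoxia averaged over the sexes (0 of 9 at an adjusted p under 0.05 by edgeR's quasi-likelihood test, against a background of 0.707% of the 19948 genes). At an unadjusted p under 0.05 the count was 1 of 9, Maf, against 8.13% of all genes. The members' log2 fold changes, hyperoxia minus normoxia, had a median of -0.10 against -0.03 for all genes, and 7 of 9 were below 0 (54.1% of all genes were). No member had all 5 hyperoxia libraries outside the range of the 6 normoxia libraries (2.16% of all genes did), and none had them all on 1 side of the normoxia libraries of their own sex (3.44% did).

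Pparg, the nuclear receptor at the centre of the programme, was at 117, 136 and 67.7 CPM in NM1 to NM3 and 130.5, 139 and 83.4 CPM in NF1 to NF3. After hyperoxia it was at 95.8 and 89.2 CPM in HM2 and HM3 and at 129.5, 91.9 and 87.7 CPM in HF1 to HF3. All 5 hyperoxia libraries fell inside the normoxia range, and the lowest value of all was in the normoxia library NM3. The log2 fold change was -0.20 ± 0.21 (SE), with a 95% interval from -0.65 to 0.25 and an adjusted p of 0.961 (edgeR). On the linear scale that interval runs from 0.638 to 1.19 times the normoxia level.

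Bhlhe40, a repressor of the circadian and immune transcription programmes, was at 233, 296 and 151 CPM in NM1 to NM3 and 352, 379 and 259 CPM in NF1 to NF3. It was at 243 and 283 CPM in HM2 and HM3 and at 302, 266 and 179 CPM in HF1 to HF3. Both hyperoxia male libraries lay above the mean of the normoxia males (227 ± 72.6 CPM, SD, n = 3), while all 3 hyperoxia female libraries lay below the mean of the normoxia females (329.7 ± 63.1 CPM, n = 3). The log2 fold change was 0.21 ± 0.32 in males and -0.41 ± 0.29 in females. The difference between the sexes was -0.62 ± 0.43 (95% interval -1.52 to 0.28), with an unadjusted p of 0.165 by edgeR's quasi-likelihood test, so it did not exceed the spread between libraries.

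Bhlhe41, its close paralogue, was at 109.8, 152 and 69.7 CPM in NM1 to NM3, 135, 162 and 112 CPM in NF1 to NF3, 88.9 and 139 CPM in HM2 and HM3, and 143, 102 and 84.7 CPM in HF1 to HF3. Its groups overlapped throughout, with a log2 fold change of -0.13 ± 0.22 over both sexes (95% interval -0.61 to 0.34, adjusted p 0.994, edgeR). The annotated exons of Gm43909 on the opposite strand share 1280 of the 6720 exon bases of Bhlhe41, and the sources used here do not say whether counting used strand.

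Cebpa had the lowest fold change of the panel. It was at 167, 253 and 136 CPM in NM1 to NM3, 283, 326 and 168 CPM in NF1 to NF3, 192 and 158 CPM in HM2 and HM3, and 219, 145 and 114 CPM in HF1 to HF3. The hyperoxia females HF2 and HF3 lay below all 3 normoxia females, and HF3 was the lowest library of all. In females the mean went from 259 ± 82.0 to 159 ± 53.7 CPM (SD, n = 3 each), a log2 fold change of -0.70 ± 0.31 with an unadjusted p of 0.0398 and an adjusted p of 1 (edgeR). In males it was -0.08 ± 0.35. Over both sexes it was -0.39 ± 0.24 (95% interval -0.89 to 0.11, adjusted p 0.791, edgeR), and the female response minus the male response was -0.61 ± 0.47 (unadjusted p 0.205 in the same model).

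Cebpb was at 608, 813 and 341 CPM in NM1 to NM3, 855, 840.2 and 509 CPM in NF1 to NF3, 653 and 582 CPM in HM2 and HM3, and 758, 683 and 508 CPM in HF1 to HF3. The normoxia libraries alone covered the whole range, and the log2 fold change of -0.05 ± 0.24 (95% interval -0.55 to 0.45) was among the closest to 0. Annotated exons of Tmem189 on the opposite strand share 312 of its 1504 exon bases. Spi1 varied least of the 9, from 216 CPM in NM3 to 414 CPM in NM2. It was at 342 CPM in NM1, at 405, 390.3 and 309 CPM in NF1 to NF3, at 352 and 358 CPM in HM2 and HM3, and at 369, 303 and 292 CPM in HF1 to HF3. Its log2 fold change was -0.03 ± 0.20, and the 95% interval of -0.45 to 0.38 leaves 0.733 to 1.30 times the normoxia level.

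Egr2 was at 92.7, 156 and 68.6 CPM in NM1 to NM3 and 149, 171 and 89.1 CPM in NF1 to NF3. It was at 88.0 and 105 CPM in HM2 and HM3 and at 121, 102 and 87.2 CPM in HF1 to HF3, so every hyperoxia value lay inside the normoxia range. No hyperoxia library was above the normoxia mean of its own sex, and the log2 fold change was -0.26 ± 0.23 (95% interval -0.75 to 0.22, adjusted p 0.921, edgeR). Klf4 was at 99.3, 167 and 91.2 CPM in NM1 to NM3, 185, 193 and 112 CPM in NF1 to NF3, 147 and 162 CPM in HM2 and HM3, and 197, 143 and 115 CPM in HF1 to HF3. HF1 was just above the highest normoxia library, NF2. Klf4 was, with Maf, the other member with a fold change above 0 (0.13 ± 0.22, 95% interval -0.33 to 0.59, adjusted p 0.994, edgeR).

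**Figure D2:**
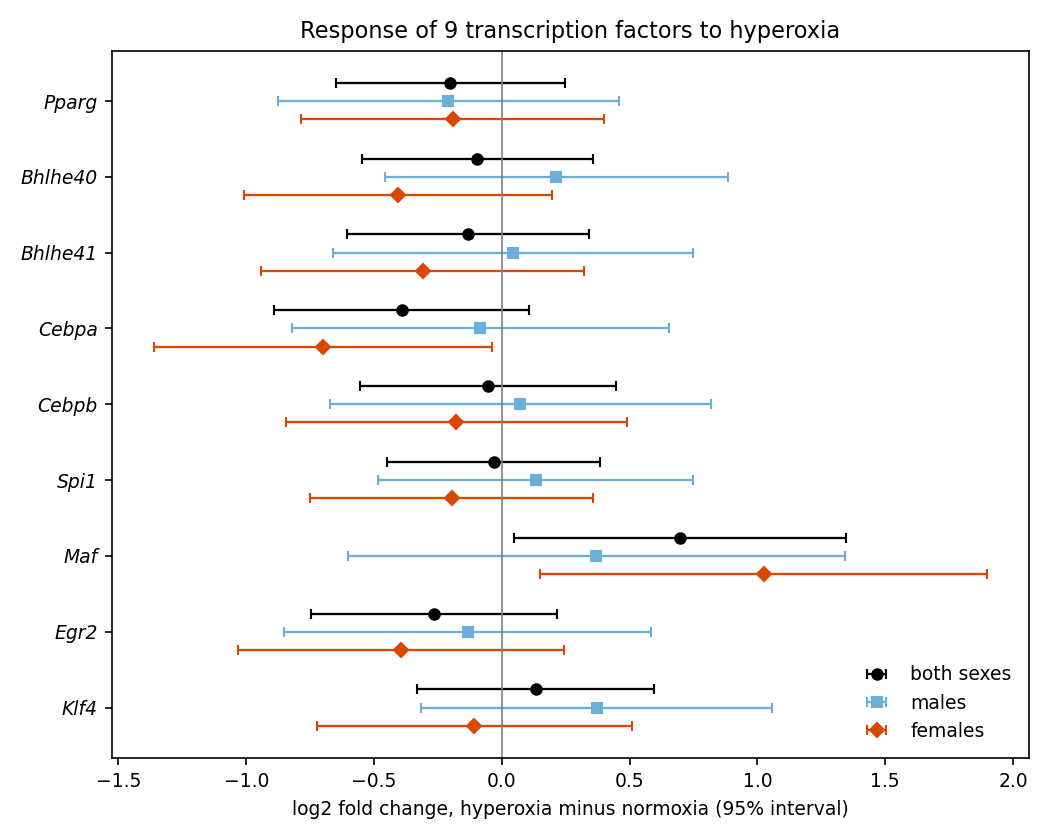
Log2 fold change of each factor, hyperoxia minus normoxia (horizontal axis), with its 95% interval, in both sexes (circles), males (squares) and females (diamonds), by edgeR's quasi-likelihood fit. The intervals span 0 for all members but Maf in both sexes (0.05 to 1.35) and in females, and Cebpa in females, and none of the 27 passes after adjustment over 19948 genes.

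Within each sex the picture was the same in count. In males 0 of 9 members changed (background 0.0401% of genes), 0 of 9 passed an unadjusted p under 0.05 (5.5% of all genes did), and 3 of 9 were below 0 (54.4% of all genes), with a median log2 fold change of 0.07. In females 0 of 9 changed (background 0.0401%), 8 of 9 were below 0 (50.6% of all genes), and the median was -0.20. At an unadjusted p under 0.05, 2 of 9 passed in females, Cebpa and Maf, against 4.53% of all genes. The female response minus the male response gave 0 of 9 calls, and 0 of all genes were called (0%). At an unadjusted p under 0.05 it gave 0 of 9 members, against 1.67% of all genes. Averaged over the oxygen groups, female minus male, 0 of 9 members were below 0 (48.4% of all genes were), and the differences ran from 0.02 for Spi1 to 0.23 for Egr2. None of these 9 differences passed the test (background 0.0251%; adjusted p of at least 0.994, edgeR), and 0 of 9 passed unadjusted (3.27% of all genes did).

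For the 8 factors other than Maf, libraries of 1 group differed by up to 2.39 times (Cebpb among normoxia males), and these differences ran in parallel. Maf differed by up to 3.88 times, among hyperoxia females. NM3 was the lowest library for 7 of these 8 (all but Cebpa), and NF2 was the highest for 5. On the log2 scale the mean deviation of the 8 genes from their own average was -0.67 in NM3, -0.38 in HF3 and -0.19 in NF3, and all 8 were below their average in each of these libraries. It was 0.50 in NF2, 0.40 in NF1, 0.36 in NM2 and 0.27 in HF1, and none of the 8 was below its average there. Abundant genes as a class (all tested genes with a mean log2 CPM of 5 or more) moved the same way, with a median deviation of -0.47 in NM3, -0.18 in HF3, -0.20 in NF3 and 0.23 in NF2. NM3, NF3 and HF3 were 3 of the 4 libraries with the most genes detected. The correlation of log2 CPM with the number of genes detected ran from -0.86 for Pparg to -0.54 for Klf4 over the 8 genes and was 0.64 for Maf (Pearson's r over 11 libraries, a description). With the library total it ran from 0.64 for Cebpa to 0.90 for Klf4 over the 8 genes and was -0.13 for Maf. With the share of counts taken by the top gene it ran from -0.75 for Klf4 to -0.27 for Cebpa and was -0.20 for Maf. The part of library depth or complexity in the members' values was not tested.

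**Figure D3:**
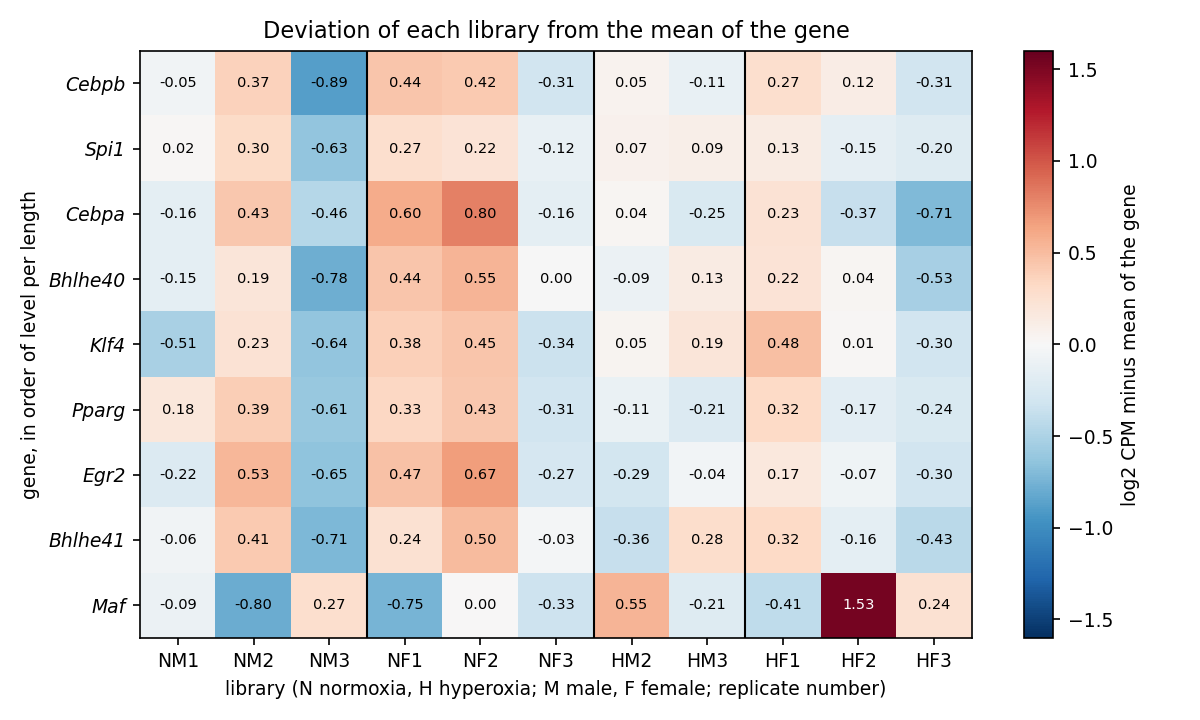
Difference of log2 CPM from the gene's own mean over the 11 libraries, for each factor (rows, in order of level per exon length) and library (columns), with red above and blue below the mean. NM3 is blue and NF2 is red for the 8 genes other than Maf, while Maf is highest in HF2.

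The 28 pairs among the 8 genes correlated over the 11 libraries with r from 0.73 to 0.93 (median 0.85), and with r from 0.76 to 0.96 (median 0.89) after the group means were taken off. The closest pair was Cebpb with Spi1, followed by the paralogues Bhlhe40 and Bhlhe41 (r = 0.91) and Pparg with Cebpb (r = 0.91). Maf went the other way, with r from -0.56 to -0.27 against the other 8. The libraries share depth and complexity, so these correlations are descriptions of the libraries. Among 11098 tested genes with a symbol and a mean log2 CPM of at least 1, the gene most like Pparg was Rpia (r = 0.99), which encodes an enzyme of the pentose phosphate pathway, followed by Eid1 (0.98). Most like Bhlhe40 were Myof and Nsf, most like Bhlhe41 Idua and Gpr157, and most like Cebpa Marveld2 and Zfp219. Cebpb was followed by Mex3c and Trp53, Spi1 by Aldh3a2 and Babam2, Egr2 by Sphk2 and Klf10, and Klf4 by Maco1 and Lrrc47, with r of 0.96 to 0.99 for all these pairs. The nearest member of each of the 8 had an r of 0.86 (Klf4 with Bhlhe40) to 0.93 (Cebpb with Spi1). The 8 were themselves among the 11098 genes searched, so the nearest of those genes could not have a lower r. No comparison between them is drawn.

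Maf was scarce, at 81 to 587 counts in a library. It was at 5.55, 3.37 and 7.17 CPM in NM1 to NM3 and 3.50, 5.94 and 4.70 CPM in NF1 to NF3. It was at 8.71 and 5.13 CPM in HM2 and HM3 and at 4.44, 17.2 and 7.04 CPM in HF1 to HF3. HF2 and HM2 lay above all normoxia libraries, and HF2 alone was more than 3 times the normoxia mean of 5.04 ± 1.48 CPM (SD, n = 6). The log2 fold change was 0.70 ± 0.31 (95% interval 0.05 to 1.35), with an unadjusted p of 0.0373 and an adjusted p of 0.540 (edgeR). It was 0.33 without HF2, and in females it went from 1.02 ± 0.41 (adjusted p 0.921) to 0.29 without HF2 and to -0.08 without the 4 libraries with the most genes detected, which leaves HF1 as the only hyperoxia female. Exons of Gm15655 on the opposite strand share 440 of the 8241 exon bases of Maf.

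The genes whose pattern was most like that of Maf were Stab1 (r = 0.93), a scavenger receptor of tissue macrophages, and Gas7 (r = 0.90). Stab1 was at 28.0 CPM in HF2 and 18.0 CPM in HM2 and at 4.51 to 8.52 CPM in the other 9 libraries. C1qa, a complement gene of interstitial macrophages, had its highest level in HF2 (21.7 CPM) and its next in HM2 (9.74 CPM), and the other 9 libraries had 2.62 to 7.33 CPM. Spic, a factor of red pulp macrophages and iron recycling cells, was at 3.76 CPM in HF2 and at or below 0.995 CPM elsewhere. Of the interstitial macrophage marker list, 9 genes were found and 8 tested. Here 8 of 8 fold changes were above 0 (median 0.82, against -0.03 for all genes) and 0 were called. Over all genes 45.9% were above 0 and 0.707% were called, which holds beside the next lists too. The summed level of the 9 genes was 326 to 439 CPM in normoxia and 304 to 497 CPM in hyperoxia, with Apoe making up most of it. Of 9 monocyte markers 8 were above 0 (median 0.62) and 0 were called, and Ccr2 was at 16.7 to 36.9 CPM in normoxia and 32.3 to 63.6 CPM in hyperoxia. Of genes linked to MAF in tissue macrophages, 10 of 12 were tested, 8 were above 0 (median 0.83) and 0 were called. The 2 most abundant of that list were Mrc1, the mannose receptor (log2 fold change 0.01 ± 0.24), and Selenop, a selenium transport protein (-0.28 ± 0.19). The part of other macrophages in the level of Maf was not tested.

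**Figure D4:**
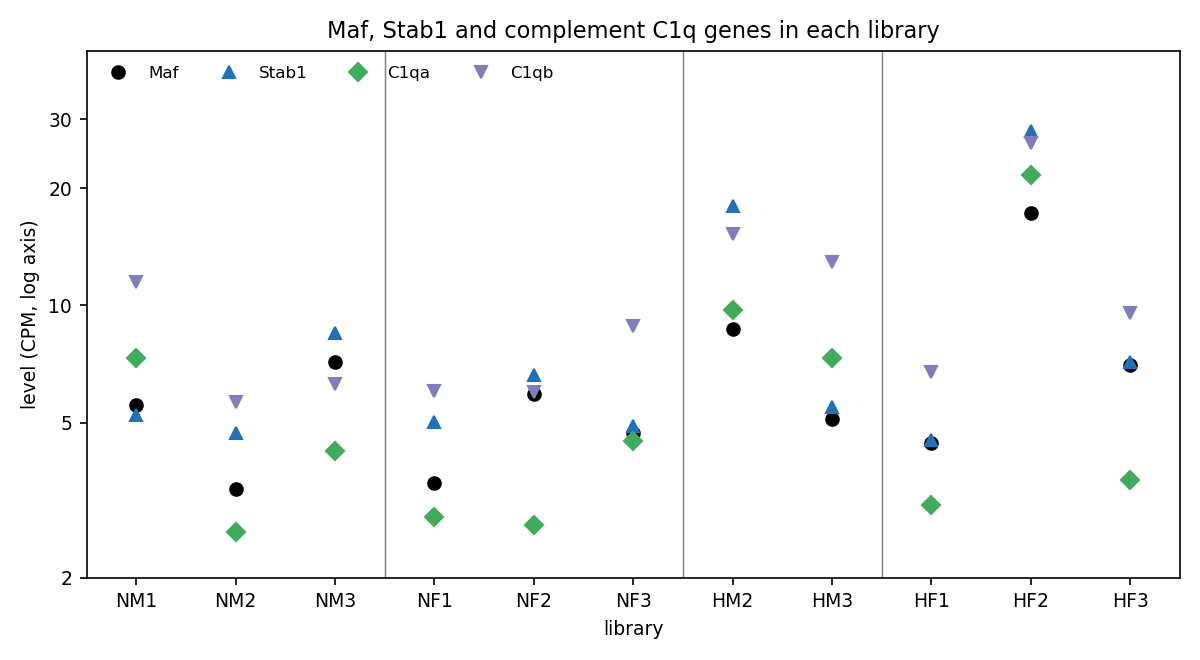
Level in CPM (log axis) of Maf, Stab1, C1qa and C1qb in each library (horizontal axis, with vertical lines between the 4 groups). HF2 has the highest value for all 4 genes, with Maf at 17.2 CPM and Stab1 at 28.0 CPM.

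Target genes of PPARG were compared with Pparg itself, because the receptor's mRNA does not measure its activity. Of 20 target genes tested, 3 fell in hyperoxia and 0 rose, against 0.165% of all genes that fell and 0.541% that rose. The median log2 fold change of the 20 was -0.26 (-0.03 for all genes), and 3 of 20 were above 0 (45.9% of all genes were). Pdk4, which restrains glucose oxidation in favour of fatty acid oxidation, was at 4.49 to 9.67 CPM in normoxia and at 0.749, 2.02, 1.66, 1.70 and 1.30 CPM in HM2, HM3, HF1, HF2 and HF3. Its groups did not overlap, and the log2 fold change was -2.09 ± 0.29 (adjusted p 0.00212, edgeR). Cidec, a lipid droplet protein, was at 100.5, 142 and 87.4 CPM in NM1 to NM3 and 147, 142 and 91.9 CPM in NF1 to NF3, and at 47.3, 45.6, 66.1, 33.1 and 39.6 CPM in the hyperoxia libraries in the same order as for Pdk4. It fell by 1.35 ± 0.22 on the log2 scale (adjusted p 0.00901, edgeR), again with no overlap. Fabp4, a fatty acid carrier, was at 12.1 to 36.7 CPM in normoxia and 3.96 to 11.8 CPM in hyperoxia, with a log2 fold change of -1.53 ± 0.31 (adjusted p 0.0377, edgeR). Without HM2 the count of target genes that fell was 1, and without the 4 libraries with the most genes detected it was also 1. The call of Fabp4 was lost under 12 of the 20 alternatives, that of Cidec under 2 and that of Pdk4 under 1, while the log2 fold changes ran from -1.85 to -1.17, from -1.52 to -1.24 and from -2.52 to -1.81.

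Other targets did not pass. Cd36, a fatty acid translocase and scavenger receptor, was at 397 to 677 CPM in normoxia and 304 to 356 CPM in hyperoxia, without overlap and with a log2 fold change of -0.64 (adjusted p 0.189, edgeR). Plin2, which coats lipid droplets, was at 707 to 1079 CPM in normoxia and 563 to 740.5 CPM in hyperoxia (-0.59, adjusted p 0.234, edgeR). The 2 most abundant targets were Lpl, lipoprotein lipase, at -0.06 ± 0.22, and Abcg1, a cholesterol exporter, at -0.37 ± 0.24. Markers of the alveolar macrophage moved in part with these: 4 of 15 fell and 0 rose (0.165% and 0.541% of all genes), the 4 being Fabp1, Fabp4, Ctsk and Krt79, and the median was -0.43. The target and marker lists share Fabp4.

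**Figure D5:**
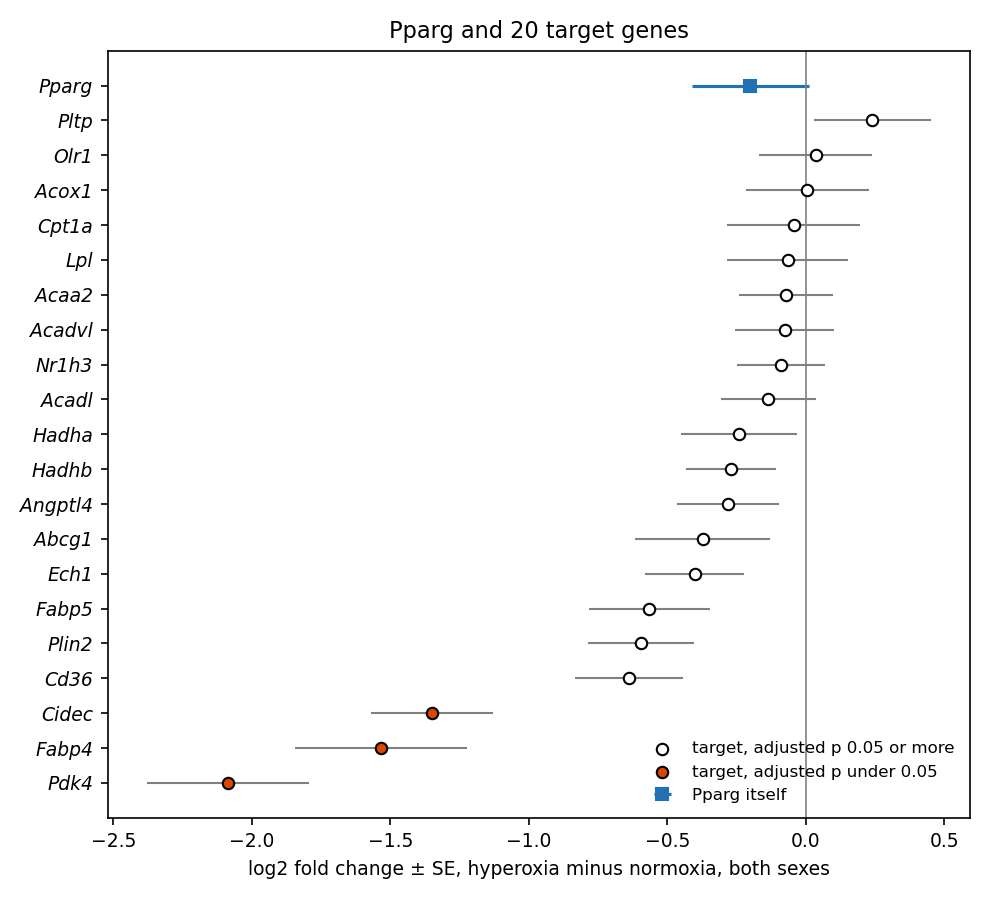
Log2 fold change, hyperoxia minus normoxia over both sexes (horizontal axis), with its SE, for Pparg (blue square) and 20 of its target genes (circles; filled where the adjusted p is under 0.05). Pdk4, Fabp4 and Cidec are filled and lie between -2.09 and -1.35, and Pparg is at -0.20.

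The partners, regulators and relatives of the 9 factors were counted from lists of known genes. None of their tested members was called in hyperoxia against normoxia. Over all genes 0.707% were called, so for lists this small 0 calls is near that share. Fold changes above 0 made up 45.9% of all genes, with a median of -0.03, beside these lists and those of the next paragraphs. Of 14 RXR partners and coregulators of PPARG, 9 were above 0 with a median of 0.04. The corepressor Ncor1 was at 0.03 ± 0.23. Of 15 genes of the GM-CSF and TGF-beta signals upstream, 6 were above 0 with a median of -0.07. Csf2rb, the signalling subunit of the GM-CSF receptor, had a log2 fold change of -0.10 ± 0.24, and Tgfbr2, the TGF-beta type II receptor, of -0.20 ± 0.24. The other C/EBP genes and their regulators had the lowest median of these lists, -0.46, with 1 of 9 above 0. In that list Cebpg, which dimerises with other C/EBP factors, was at -0.46 ± 0.16 (adjusted p 0.305, edgeR) and Cebpz at -0.05 ± 0.18.

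The ETS, IRF and RUNX partners of PU.1 had a median of 0.04 over 13 genes, led in abundance by Runx1 (-0.03 ± 0.24) and Cbfb (0.17 ± 0.18), which form 1 complex. Of the MAF family, listed with Bach1 and Bach2, 5 of 7 were above 0 with a median of 0.06. The most abundant were Bach1, a partner of small MAF proteins (0.06 ± 0.23), and Maff, itself a small MAF protein (-0.40 ± 0.15, adjusted p 0.396, edgeR). The EGR family and its corepressors had a median of -0.06 over 5 genes, with the corepressors Nab1 at 0.15 ± 0.18 and Nab2 at 0.13 ± 0.25. Of 10 other genes, KLF genes with Sp1 and Sp3, 5 were above 0 with a median of 0.01. The most abundant were Klf10 (-0.18 ± 0.18) and Klf6 (within 0.01 of 0). Klf10 was also the second gene by likeness to Egr2.

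Egr2 and Klf4 belong to gene families that cell dissociation can induce. Of 13 genes, immediate early genes with the heat shock genes Hspa1a and Hspa1b, 5 were above 0, with a median of -0.05. Fos (0.29 ± 0.19) and Jund (-0.05 ± 0.20) were the most abundant. Their summed level was 604 to 734 CPM in normoxia and 589 to 825 CPM in hyperoxia. Of 12 genes of the circadian clock, part of which BHLHE40 and BHLHE41 repress through E-boxes, 7 were above 0 with a median of 0.04. Per1 was at -0.49 ± 0.21 (adjusted p 0.499, edgeR) and Per2 at -0.09 ± 0.18. Between the sexes, 13 of the 14 PPARG partners and coregulators were higher on average in females (51.6% of all genes were). Their median was 0.35, against 0.01 for all genes, and 0 were called (0.0251% of all genes were). Their summed level overlapped between the sexes. It was 1072, 1993 and 1053 CPM in NM1 to NM3 and 1445 and 1849 CPM in HM2 and HM3. In females it was 2389, 2507 and 1341 CPM in NF1 to NF3 and 2145, 2036 and 1332 CPM in HF1 to HF3. These genes varied together between libraries, so the count is not one of independent genes, and the part of library complexity was not tested. Other lists also leaned towards females, with 9 of 10 KLF and SP genes and 12 of 15 GM-CSF and TGF-beta genes higher. Among the PPARG target genes 11 of 20 were higher.

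Ratios between members of 1 library do not depend on library scaling, and 3 were computed after the values had been seen. The log2 ratio of Cebpa to Cebpb was -1.57 ± 0.20 in normoxia (SD, n = 6, from -1.86 to -1.32) and -1.97 ± 0.21 in hyperoxia (n = 5, from -2.23 to -1.77). The difference within sex was -0.37, with an exact two-sided permutation p of 0.03 over 200 relabellings within sex and 0.09 after Benjamini-Hochberg adjustment over the 3 ratios. Without the 4 libraries with the most genes detected it was -0.18, from 7 libraries, too few for an exact permutation p under 0.05. The ratio of Pparg to Spi1 differed by -0.16 (exact permutation p 0.15, adjusted 0.225), and that of Bhlhe41 to Bhlhe40 by -0.05 (exact permutation p 0.73). None of the 3 ratios passed after adjustment.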

How the data were processed

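The authors deposited 1 table of whole-number read counts per Ensembl gene and library, not normalized (11 libraries). Per the labels' protocols, a SMART-Seq low-input kit was used, and the first 8 nucleotides (unique molecular identifiers) and the adapter were trimmed. Per the submitters' processing notes the build was mm39 and the tools named are STAR 2.7.9 with Trim Galore 0.6.7, then DESeq2 1.42, R 4.3.2 and Salmon 1.10.1, with no roles given. The sources used here do not state whether identifiers collapsed duplicate reads or whether counting used strand. Symbols were matched for 51884 of 57180 identifiers (90.7%).

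The reanalysis used edgeR 4.0.16 (R 4.3.3). Its expression filter (minimum count 10, minimum total 15) kept 19948 genes, libraries were TMM-scaled, and 1 robust quasi-likelihood fit over the 11 libraries estimated a mean for each of the 4 groups. The contrasts were hyperoxia minus normoxia (both sexes, males, females), female minus male, and the interaction. Adjusted p-values are Benjamini-Hochberg values over all genes tested, called under 0.05. The fit was also run on simulated counts, drawn independently for each gene and library. That run does not cover variation that genes share within a library. The 3-count floor covers counting error only, and each SD and SE the spread between libraries.

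The members and gene lists were chosen with earlier results of these data known, the members by name. Named were the 9 members, list genes past the test, the 2 most abundant genes of each pathway list, and the 2 genes most like each member (some genes under this rule are not reported here); C1q genes, Spic, Cd36 and Plin2 were named after their values were seen. Alternatives were other scalings, filters, DESeq2 1.42.0, a replicate block, and libraries left out in turn. Library pairs within a group differed by at least 16.7 in chi-square per gene, so none of them was counted as a repeat. Pairs between groups were not checked.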

Additional observations from a re-analysis of the deposited data

Results flagged for a closer look

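For Bhlhe40, both hyperoxia male libraries were above the normoxia male mean and all 3 hyperoxia female libraries were below the normoxia female mean. The female response minus the male response was -0.62 ± 0.43 on the log2 scale (n = 11 libraries). The interaction term of edgeR's quasi-likelihood fit gave an unadjusted p of 0.165 and an adjusted p of 1, so the difference did not pass. It was singled out because the libraries of each sex lay on opposite sides of their normoxia means.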

How the results depend on the processing

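The count of members called stayed at 0 in each of the 5 contrasts under all 20 or 21 alternatives, the lowest adjusted p of a member being 0.209 over both sexes, 0.455 in males, 0.315 in females, 0.732 for the interaction and 0.388 for female minus male. Fold changes near 0 changed sign. With the replicate block, those of Cebpb and Spi1 over both sexes were 0.051 and 0.029. Leaving out 1 library at a time gave -0.22 to 0.023 for Bhlhe40, -0.31 to 0.017 for Bhlhe41, -0.20 to 0.10 for Cebpb and -0.15 to 0.075 for Spi1. Without the 4 libraries with the most genes detected, Maf in females was at -0.084, and over both sexes at 0.28. The number of PPARG targets that fell was 3, but 5 with DESeq2, 1 without those 4 libraries, and 1 to 3 with 1 library left out. The ratio of Cebpa to Cebpb differed by -0.44 to -0.29 with 1 library left out. Its unadjusted exact permutation p did not stay under 0.05 in 6 of 12 alternatives, all of which left libraries out. Ranked by CPM without exon length, 5 of 9 members kept their position. The cause of these changes was not tested, and leaving out the 4 libraries leaves 1 hyperoxia female, assumed to vary like the other groups.

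Calls over all genes, 141 as reported, numbered 448 with DESeq2, 230 with upper-quartile scaling, 302 with no filter, 255 with scaling on abundant genes (chosen after seeing the data), and 23 without the 4 libraries. With 1 library left out they fell most for HM3 (36 calls), HM2 (48), HF2 (63) and NF1 (65). The labels give replicate numbers no shared litter or day, and they were not taken as pairs. In deviations from group means, the 15 same-numbered pairs correlated by -0.35 to 0.64 (median 0.00), 7 over 0.1. The 30 differently numbered pairs correlated by -0.68 to 0.50 (median -0.01), 14 over 0.1, and 6 of 11 libraries correlated best with their own number. These figures include the 2 hyperoxia males, whose deviations mirror each other and bear on no pairing. Without them, r was -0.27 (NM1, NF1), -0.0014 (NM1, HF1) and 0.26 (NF1, HF1) for number 1. For number 2 it was 0.61 (NM2, NF2), 0.19 (NM2, HF2) and 0.31 (NF2, HF2). For number 3 it was 0.41 (NM3, NF3), 0.52 (NM3, HF3) and 0.64 (NF3, HF3). Whether libraries of 1 number share a batch was not tested. The block gave 256 calls and 0 members.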
